A study of Mus musculus with 23 samples.

Results

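The clustered protocadherins are 58 genes in 3 neighbouring clusters on mouse chromosome 18, and they were chosen here by their symbols alone, as genes named Pcdha, Pcdhac, Pcdhb, Pcdhga, Pcdhgb or Pcdhgc with a number. There were 14 alpha, 22 beta and 22 gamma genes among 19064 genes with values in the table of 21785, and every one had a value in each of the 23 libraries. In the coordinates of the authors' table (build mm10) the alpha genes spanned positions 36930285 to 37187661, the beta genes 37264998 to 37525114 and the gamma genes 37655726 to 37841873.

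Clustered protocadherins are cell adhesion proteins of the cadherin superfamily, and a neuron displays its own combination of them on its surface. Every alpha and gamma variable exon has its own promoter and is spliced to constant exons shared by its cluster, so that the extracellular part differs and the cytoplasmic tail is common, while each beta gene is a single exon without constant exons. Matching combinations bind each other across membranes, which lets the branches of one neuron recognise each other, and CTCF and cohesin take part in choosing the promoters. The C-type genes Pcdhac1, Pcdhac2, Pcdhgc3, Pcdhgc4 and Pcdhgc5 differ from the others in that many neurons of a type share them.

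Hippocampal messenger RNA was sequenced in 5 libraries labelled Dp16;D-KO/K-KO, 6 labelled Dp16/D-KO, 7 labelled Dp16 and 5 labelled WT. Dp16 mice carry a duplicated segment of chromosome 16 and model Down syndrome, Dp16/D-KO adds a Dyrk1a knockout described as correcting its dosage, Dp16;D-KO/K-KO adds knockouts of Dyrk1a and Kcnj6, and WT mice carry none of these. The clusters lie outside the duplicated segment in every group. The libraries fall into 2 sets by their RNA label, called batches here. Batch 2 holds 13 libraries, labelled polyA RNA on a background of over 90% C57/B6 with no age given, and batch 1 holds 10, labelled total RNA from C57BL/6 mice of 2 to 3 months. Batch 2 has 3, 3, 4 and 3 libraries of the groups in the order above and batch 1 has 2, 3, 3 and 2. The labels do not say whether libraries come from separate animals, so p-values measure the spread between libraries, which may be technical.

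Depth, estimated from the steps between low values, lay between 14650000 and 17400000 reads per library. Dyrk1a, a protein kinase gene, averaged 24.7 ± 1.46 RPKM (SD, n = 5) in libraries labelled Dp16;D-KO/K-KO, 24.3 ± 2.08 (n = 6) in those labelled Dp16/D-KO, 24.3 ± 1.48 (n = 7) in Dp16 and 16.9 ± 1.19 (n = 5) in WT. Kcnj6, a potassium channel subunit gene, averaged 25.6 ± 1.67, 26.0 ± 1.52, 26.9 ± 3.48 and 18.3 ± 1.87 RPKM in the same groups. In libraries whose labels name its knockout, Dyrk1a averaged no less than in Dp16, and Kcnj6 differed from Dp16 by less than the SD, so those groups are called by their labels only. Ddx3y, on the Y chromosome, had 12.65 RPKM in WT F1 and 0.01 in WT M3, both against the sex in their titles. Whether these libraries were exchanged, which would also move each to the other batch, was not tested. Results of members near a call that use WT are therefore also given without this pair of libraries. Markers and lists of related genes are given only with the pair included. The 7 hippocampal neuron markers summed to 225.8 to 320.2 RPKM over the libraries. Of these Wfs1 was higher in all 3 comparisons with WT (0.31 to 0.49 on the log2 scale), and the other 6 were not called. The median change of the 7 was -0.06 in Dp16, -0.09 in Dp16/D-KO and -0.09 in Dp16;D-KO/K-KO, each compared with WT. Among markers of other cell types, Olig1 was higher in Dp16 and in Dp16;D-KO/K-KO than in WT, and Olig2 was higher in Dp16 than in WT. Both belong to the 4 oligodendrocyte precursor markers, of which the other 2, Pdgfra and Cspg4, were not called in these comparisons. Whether the rise of Olig1 and Olig2 comes from extra gene copies or from more cells was not tested. Dcn, 1 of 4 meningeal fibroblast markers, was higher in Dp16/D-KO than in WT, and the other 3 were not called. Tmem119, 1 of 5 microglial markers, was lower in Dp16 than in WT, and the other 4 were not called. Choroid plexus markers summed to 27.4 to 3905 RPKM in libraries labelled Dp16;D-KO/K-KO, 14.5 to 3225 with the label Dp16/D-KO, 33.5 to 3691 in Dp16 and 18.3 to 2451 in WT, and their part in the results was not tested.

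RPKM divides a gene's reads by its length and by the size of the library. Levels are set side by side between genes on that scale, with the limit that reads from exons shared within the alpha and gamma clusters may be in them. Gamma genes were the most abundant cluster: the median member averaged 5.05 RPKM over the 23 libraries, against 1.53 in the alpha cluster and 1.48 in the beta cluster. Summed over members, gamma genes made up 67.7 to 74.7% of all clustered protocadherin RPKM in a library, alpha genes 12.5 to 15.8% and beta genes 12.1 to 16.9%. Much of the gamma and alpha sums was C-type RPKM. Without the C-types the median member still averaged 5.04 RPKM in the gamma cluster and 1.45 in the alpha cluster. Pcdhgc5 had the highest level of the family, 42.9 ± 5.68 RPKM (SD, n = 23, from 34.6 to 51.8), and was above Pcdhgc3 in 22 of 23 libraries. Pcdhgc3 averaged 34.9 ± 3.23 (29.3 to 40.9) and Pcdhac2 14.6 ± 1.43 (11.9 to 18.1). Each stood above the next gene in the order in 23 of 23 libraries, and so did Pcdhga11, the most abundant gamma gene outside the C-types, at 10.95 ± 1.13 RPKM (9.19 to 12.96).

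The 3 gamma C-types together held 46.5 ± 1.05% of gamma RPKM (SD, n = 23) and Pcdhac2 alone held 42.3 ± 2.77% of alpha RPKM. The C-types did not all stand out. Pcdhac1 averaged 1.61 ± 0.245 RPKM (1.14 to 1.98), close to the alpha median, and Pcdhgc4, whose gene is needed for neuron survival in mice, averaged 4.57 ± 0.494 (3.57 to 5.46), below the gamma median. Below Pcdhga11 the order of neighbours was not stable: Pcdhga3 was above the next gene, Pcdhga12, in 11 of 23 libraries, at means of 6.94 and 6.86 RPKM.

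**Figure D1:**
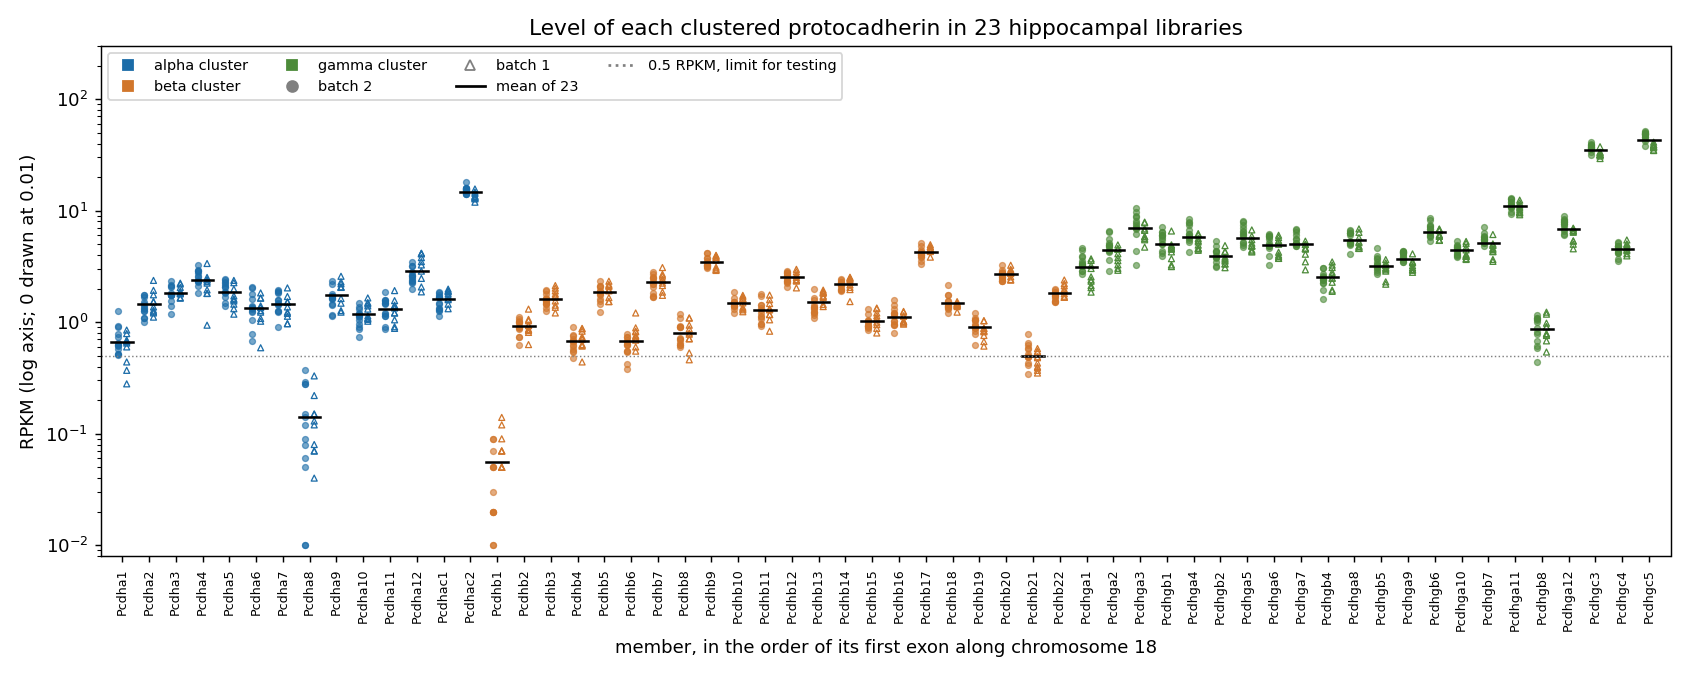
Level of each of the 58 clustered protocadherins in RPKM on a log axis, in the order of their first exons along chromosome 18, with 1 point per library (filled circles, batch 2; open triangles, batch 1) and a bar at the mean of 23. Pcdhgc5, Pcdhgc3 and Pcdhac2 have the highest means, and Pcdha8 and Pcdhb1 lie below the dotted line at 0.5 RPKM.

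Among the alternate alpha genes the highest means were those of Pcdha12 (2.89 ± 0.701 RPKM, n = 23) and Pcdha4 (2.39 ± 0.529), and the lowest tested were Pcdha1 (0.665 ± 0.206), Pcdha10 (1.18 ± 0.226) and Pcdha11 (1.32 ± 0.299). Among beta genes, Pcdhb17 (4.28 ± 0.443), Pcdhb9 (3.48 ± 0.393) and Pcdhb20 (2.70 ± 0.272) stood at the top and Pcdhb4 (0.677 ± 0.123), Pcdhb6 (0.685 ± 0.171) and Pcdhb8 (0.804 ± 0.194) at the bottom of those tested. In the gamma cluster Pcdhgb8, a polymorphic pseudogene in GENCODE, was lowest at 0.871 ± 0.220 RPKM, and Pcdhgb4 (2.52 ± 0.458) and Pcdhga1 (3.13 ± 0.721) followed. Pcdha8 (0.142 ± 0.105) and Pcdhb1 (0.0552 ± 0.0355) were listed at 0 in 2 libraries each. They and Pcdhb21, whose mean of 0.4996 fell just under the limit of 0.5 RPKM, were not tested, which left 13 alpha, 20 beta and 22 gamma genes. The order was only weakly related to position. Spearman's rho between level and position along the cluster was 0.04 among the 12 alternate alpha genes, 0.23 among the 22 beta genes and 0.09 among the 19 alternate gamma genes, a description across genes that share libraries.

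The shared exons limit what a value of an alpha or gamma gene can mean. Of the stretches of 50 bases in an annotated alpha transcript, the length of the reads of batch 1, 48.2 to 56.4% also occurred in most other alpha transcripts, and 41.2 to 45.3% of those in a gamma transcript occurred in most other gamma transcripts. No stretch of a beta transcript occurred in most others of its cluster. Between 0 and 11.99% of the stretches occurred in some other member without being shared by most. How reads from shared exons were assigned is not given, so alpha and gamma values may hold reads of other members of the same cluster. The table gives Pcdhga12 a start 109854 bases before that in RefSeq, at the beginning of the gamma cluster, and the extents it gives Pcdhb19 and Pcdhb20 overlap.

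Most alpha and gamma genes varied more between libraries than tested genes of their level usually did, and most beta genes varied less. After the fit of genotype, batch and sex letter, the residual SD on the scale of log2(RPKM + 0.1) was above the value that all tested genes give at the same level in 10 of 13 alpha, 5 of 20 beta and 19 of 22 gamma genes, against 56% of all 13971 tested genes. The median ratio to that value was 1.29 for alpha, 0.753 for beta and 1.42 for gamma genes, against 1.05 for all tested genes. Ratios over 1.5 occurred in 3 alpha, 0 beta and 9 gamma genes, and in 18.6% of all tested genes. Pcdhga3 had the highest ratio, 2.78. It had 5.86, 6.67, 7.12, 8.95 and 9.75 RPKM in libraries labelled Dp16;D-KO/K-KO, a median of 6.88 (5.48 to 8.10) in those labelled Dp16/D-KO, a median of 5.82 (3.28 to 7.90) in Dp16 and 4.71, 7.74, 7.78, 8.69 and 10.65 in WT. Libraries of a single genotype thus spanned most of its range. Pcdha6 had the largest residual SD of all members, 0.464, and ran from 0.59 to 2.05 RPKM, both of them in Dp16 libraries. The genes with the highest levels stayed nearer to 1, with ratios of 1.19 for Pcdhgc5, 0.987 for Pcdhgc3, 0.902 for Pcdhac2 and 0.929 for Pcdhga11, and Pcdhb12 had a ratio of 0.517.

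**Figure D2:**
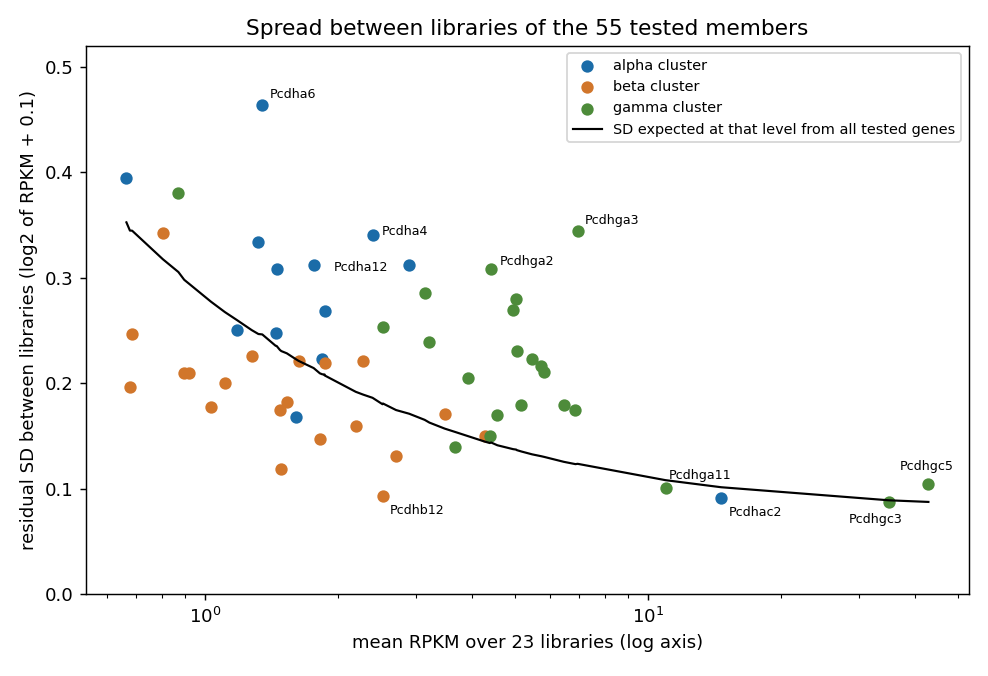
Residual SD between libraries on the scale of log2(RPKM + 0.1) against the mean RPKM of each of the 55 tested members, with the SD that all tested genes give at each level as a line. Of the gamma genes 19 of 22 lie above the line, of the beta genes 5 of 20.

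Estimated reads put the spread over all libraries, before any fit and so with batch and genotype in it, beside counting error. From the longest annotated coding transcript and estimated depth, a tested alpha gene had between 57 and 1415 reads in the average library. A beta gene had between 41 and 328 and a gamma gene between 66 and 3351. For some beta genes this transcript is longer than the extent in the authors' table, so their reads may be fewer. For Pcdhb17 it has 4660 bases, against positions 37485021 to 37488290, and for Pcdhb6 3729 bases, against 37334028 to 37336346. The coefficient of variation over the 23 libraries was over 2 times that of counting alone in 10 of 13 alpha, 0 of 20 beta and 22 of 22 gamma genes, with median ratios of 2.53, 1.58 and 3.38. Pcdhb10 varied by 11.1% where counting alone gives 12%, and Pcdhga3 by 24.7% where counting gives 4.31%. These ratios rest on estimated reads and cover counting error only. Counting error falls as reads rise, and the median alpha, beta and gamma gene had 144, 103 and 392.5 estimated reads. The ratios therefore do not compare the clusters at equal reads, and no value over all tested genes stands beside them.

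Members of a cluster moved together to different degrees. After the same fit, the SD of the summed beta RPKM was 2.01 times what independently varying genes would give. That of the gamma sum was 1.80 times, or 1.46 without the C-types. That of the alpha sum was 0.825 times, or 0.792 without Pcdhac2. These ratios also depend on the number of genes summed, and no other set of genes was put beside them. Of 52 pairs of neighbours in the order of the chromosome, residuals correlated positively in 4 of 12 alpha pairs (median Pearson's r -0.07), 14 of 19 beta pairs (0.30) and 17 of 21 gamma pairs (0.13). Pairs that are not neighbours were not examined. By permutation, with adjustment over the 52 pairs, 2 pairs passed. The residuals were permuted freely over all libraries, across batches and genotypes. Residuals of a fit are not fully exchangeable, so these p-values may be too small. Pcdhb19 and Pcdhb20 had r = 0.748 (adjusted p = 0.00156) and Spearman's rho = 0.865 (adjusted p = 0.00052, from the smallest p that 100000 permutations can give) over 23 libraries. Their r was 0.865 within batch 2, 0.610 within batch 1 and 0.624 without the 2 libraries farthest out. These 2 genes have overlapping extents in the table and share 128 stretches of 50 bases, so reads of one may be in the value of the other. Pcdhb16 and Pcdhb17 had r = 0.775 (adjusted p = 0.00104) and rho = 0.595 (adjusted p = 0.0577), with r of 0.831 within batch 2, 0.550 within batch 1 and 0.611 without the 2 libraries farthest out, and share 7 such stretches. Dp16;D-KO/K-KO F1 had the most of both, 1.57 and 5.08 RPKM.

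The summed level of each cluster was compared across genotypes as a description. Alpha genes summed to 33.0 ± 1.56 RPKM (SD, n = 5) in libraries labelled Dp16;D-KO/K-KO, 34.3 ± 1.41 (n = 6) in those labelled Dp16/D-KO, 35.6 ± 1.94 (n = 7) in Dp16 and 34.8 ± 0.913 (n = 5) in WT. Beta genes summed to 33.3 ± 2.12, 34.9 ± 2.61, 36.6 ± 2.77 and 35.6 ± 2.17 RPKM in these groups, and gamma genes to 181.4 ± 21.98, 175.4 ± 19.8, 176.0 ± 13.8 and 176.2 ± 13.5. All groups overlapped in every cluster. In bulk tissue, fewer cells of a type and less RNA per cell cannot be told apart.

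**Figure D3:**
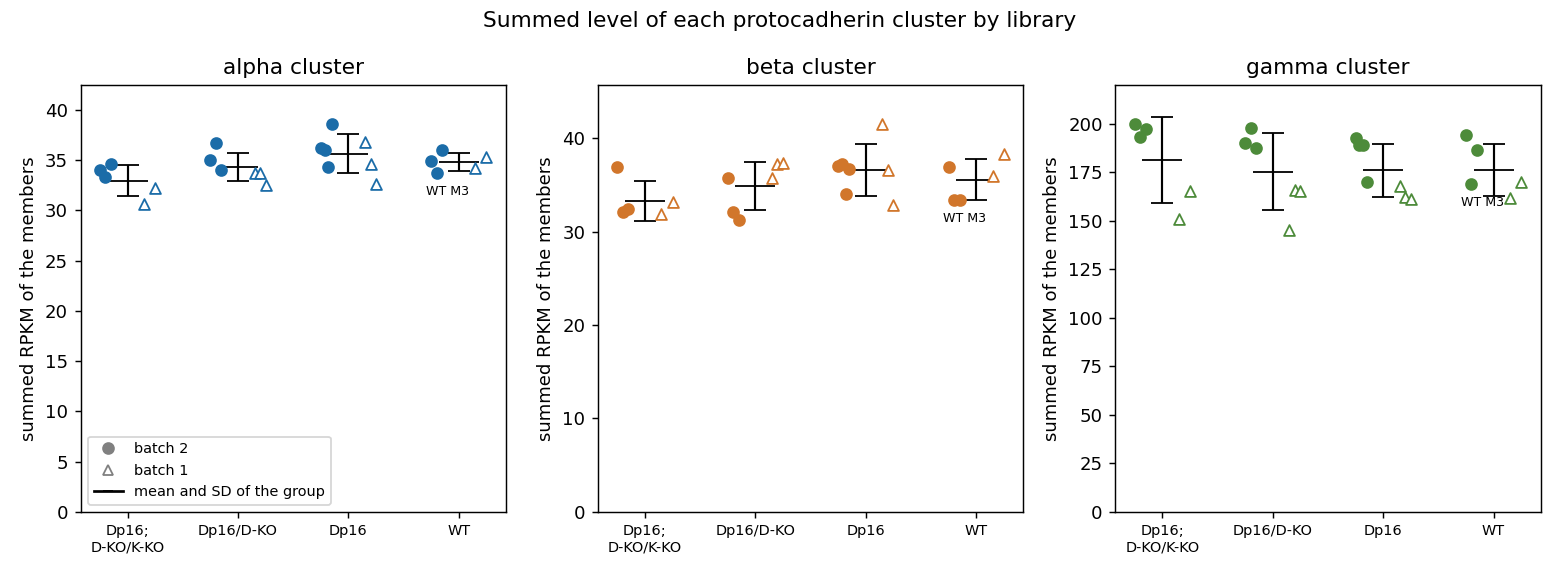
Summed RPKM of the members of each cluster by library, for the 4 genotype labels, with batch 2 as filled circles, batch 1 as open triangles and the mean and SD of each group in black. The genotypes overlap in all 3 clusters, while in the gamma cluster the libraries of batch 1 lie between 145.3 and 170.0 RPKM and those of batch 2 between 168.7 and 200.

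Dp16 against WT asks what the duplicated segment changes in these genes. In limma with Benjamini-Hochberg adjustment over all 13971 tested genes, 0 of 55 members passed an adjusted p under 0.05, where 1.45% of all tested genes did. At an unadjusted p under 0.05, 7 of 55 members passed, against 13.8% of all tested genes, and the authors' deposited table, by its own adjusted p, also called 0 members. The median log2 change was 0.01 for alpha, 0.04 for beta and 0.00 for gamma genes, against -0.01 for all tested genes. For 49 of 55 members the 95% interval lay within 0.58 of 0 on the log2 scale, the size of a change from 2 gene copies to 3, and for the other 6 it reached further. In the other comparisons this held for 46 to 53 members.

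Pcdhga11 came nearest to a call. It had a median of 9.65 RPKM (9.19 to 11.76) in Dp16, against 10.89, 11.21, 12.43, 12.60 and 12.65 in WT. Only 3 of the Dp16 libraries reached the lowest WT value. The log2 change was -0.22 ± 0.06 (SE; adjusted p = 0.069), and it was -0.18 (adjusted p = 0.396) without WT F1 and M3. It was called with a replicate block (-0.24, adjusted p = 0.0404), without WT M4 (adjusted p = 0.044) and without Dp16 F1 (adjusted p = 0.0243). Pcdhac1 had a median of 1.82 RPKM in Dp16 (1.27 to 1.98), against 1.14, 1.32, 1.32, 1.35 and 1.71 in WT. The groups overlapped, and the change of 0.29 ± 0.11 (SE) did not pass (adjusted p = 0.2). Without WT F1 and M3 it was 0.18 (adjusted p = 0.665). Pcdhac2 was at 0.10 ± 0.05 (adjusted p = 0.431). Pcdhb6, at 0.34 ± 0.16 (adjusted p = 0.334), and Pcdhb12, at -0.13 ± 0.07 (adjusted p = 0.426), were the beta genes with the smallest p.

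The fitted change of Pcdhga4 had opposite signs in the batches, a difference that did not pass over all genes. In batch 2 this gamma gene had 7.41, 7.68, 7.89 and 8.46 RPKM in Dp16, against 4.24, 5.21 and 5.47 in WT, and these did not overlap. In batch 1 it had 4.91, 5.25 and 5.63 RPKM in Dp16, against 5.41 and 6.23 in WT, and these overlapped. No share of all tested genes that separate is given beside this, nor below for Pcdhb4 and Pcdhb12. The fitted change was 0.66 (adjusted p = 0.00717) in batch 2 alone, -0.16 (adjusted p = 0.726) in batch 1 alone and 0.33 ± 0.12 (SE; adjusted p = 0.188) over both, or 0.275 (adjusted p = 0.439) without WT F1 and M3. Of the WT values of batch 2, the lowest was that of WT M3. The difference between the batches, tested as an interaction over all genes, was 0.81 ± 0.16 (SE), with an unadjusted p of 0.000482 and an adjusted p of 0.995. By the same tests 0 of 55 members had a Dp16 effect that differed between batches, or between libraries with the letters F and M, and 2 and 1 members passed at an unadjusted p under 0.05. Of all tested genes 0% were called in either, and 3.36% and 3.99% passed unadjusted. Libraries labelled Dp16;D-KO/K-KO had 5.66, 6.12 and 6.20 RPKM of Pcdhga4 in batch 2 and 4.56 and 4.61 in batch 1, and those labelled Dp16/D-KO had 5.75, 5.91 and 6.67 in batch 2. The 4 Dp16 libraries of batch 2 therefore lay above all other libraries.

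The comparisons with Dp16 ask what correcting Dyrk1a, or Dyrk1a and Kcnj6, changes, although both genes stayed near their Dp16 levels in those libraries. They share the Dp16 libraries. In libraries labelled Dp16/D-KO against Dp16, 0 of 55 members passed in limma, against 0.143% of all tested genes, with 3 at an unadjusted p under 0.05 (15.2% of all). The smallest p was that of Pcdhac2, a C-type gene that serotonergic axons need for spacing in mice. It had a median of 14.3 RPKM (11.91 to 16.05) in libraries labelled Dp16/D-KO, against 15.65 (13.54 to 18.14) in Dp16. These overlapped, and the log2 change was -0.12 ± 0.05 (SE; adjusted p = 0.276). Among the other genes with the smallest p, Pcdha11 was at -0.21 (adjusted p = 0.586), Pcdhb2 at -0.28 (adjusted p = 0.312), Pcdhb12 at -0.13 (adjusted p = 0.334), Pcdhga1 at -0.25 (adjusted p = 0.426) and Pcdhga4 at -0.24 (adjusted p = 0.303). The medians were 0.04, -0.06 and 0.03 for alpha, beta and gamma genes, against 0.01 for all. A negative change was found in 16 of 20 beta genes, against 52.9% positive among all tested genes. Beta genes share these libraries and moved together, so here and below their signs are not separate observations.

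In libraries labelled Dp16;D-KO/K-KO against Dp16, 0 of 55 members passed, against 0.0358% of all tested genes, with 9 at an unadjusted p under 0.05 (11.3% of all). The fitted change was negative in 16 of 20 beta genes (median -0.15) and 8 of 13 alpha genes (median -0.11), while it was positive in 58.4% of all tested genes (median 0.02). The alpha median was -0.0196 in batch 1 alone, -0.00856 with a replicate block and -0.0419 without Dp16;D-KO/K-KO F1. Pcdhb11 had 0.83, 0.93, 1.07, 1.17 and 1.22 RPKM in libraries labelled Dp16;D-KO/K-KO, against a median of 1.44 (1.12 to 1.78) in Dp16. Only 2 Dp16 libraries, M4 and M2, fell within the range of the others. The change was -0.42 ± 0.14 (SE; adjusted p = 0.264). Pcdhb4 was at -0.30 (adjusted p = 0.424), Pcdha12 at -0.30 (adjusted p = 0.527), Pcdhac2 at -0.15 (adjusted p = 0.298), Pcdhga4 at -0.30 (adjusted p = 0.333) and Pcdhga11 at 0.16 (adjusted p = 0.297).

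In libraries labelled Dp16;D-KO/K-KO against those labelled Dp16/D-KO, the difference being the Kcnj6 knockout of the label, 0 of 55 members and 0% of all tested genes passed, with 3 members at an unadjusted p under 0.05 (9.02% of all). Negative changes were found in 11 of 13 alpha and 16 of 20 beta genes, against 51.6% positive among all tested genes, but the medians were only -0.04 and -0.05. The beta median turned to 0.0496 in batch 2 alone, against -0.197 in batch 1 alone. Pcdhb4 had 0.44, 0.54, 0.57, 0.61 and 0.61 RPKM in libraries labelled Dp16;D-KO/K-KO, against a median of 0.745 (0.62 to 0.90) in those labelled Dp16/D-KO. The groups did not overlap, yet the change of -0.39 ± 0.14 (SE) did not pass over all genes (adjusted p = 0.386). Pcdha2 was at -0.30 (adjusted p = 0.576), Pcdhac1 at -0.14 (adjusted p = 0.779), Pcdhb10 at -0.12 (adjusted p = 0.751), Pcdhga11 at 0.14 (adjusted p = 0.512) and Pcdhgc3 at 0.14 (adjusted p = 0.424).

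Against WT, which asks how far each group with a knockout in its label differs from it, 0 of 55 members passed in libraries labelled Dp16;D-KO/K-KO (0.752% of all tested genes) and 0 of 55 with the label Dp16/D-KO (1.28%). At an unadjusted p under 0.05 there were 3 members in each, against 9.83% and 13.7% of all. With the label Dp16;D-KO/K-KO 16 of 20 beta genes had a negative change (median -0.09), against 51.4% positive among all tested genes (median 0.00). These comparisons share the WT libraries with each other and with Dp16 against WT. Pcdhb12 had the smallest p in both. It had 2.23, 2.33, 2.35, 2.41 and 2.44 RPKM in libraries labelled Dp16;D-KO/K-KO and a median of 2.32 (2.03 to 2.75) in those labelled Dp16/D-KO, against 2.62, 2.78, 2.83, 2.84 and 2.90 in WT. All 5 libraries labelled Dp16;D-KO/K-KO were below all 5 WT libraries, and 2 of those labelled Dp16/D-KO overlapped WT. The change was -0.24 ± 0.07 (SE; adjusted p = 0.2) with the label Dp16;D-KO/K-KO and -0.26 ± 0.07 (adjusted p = 0.0748) with the label Dp16/D-KO. Without WT F1 and M3 these were -0.23 (adjusted p = 0.356) and -0.26 (adjusted p = 0.124). Also with the label Dp16;D-KO/K-KO, Pcdha2 was at -0.43 (adjusted p = 0.319), Pcdha12 at -0.38 (adjusted p = 0.503), Pcdhb11 at -0.30 (adjusted p = 0.518), Pcdhga10 at -0.18 (adjusted p = 0.548) and Pcdhgc3 at 0.10 (adjusted p = 0.562). With the label Dp16/D-KO, Pcdhac1 was at 0.31 (adjusted p = 0.2) and Pcdhga11 at -0.20 (adjusted p = 0.135). Without WT F1 and M3 these were 0.193 (adjusted p = 0.459) and -0.152 (adjusted p = 0.304). Pcdha7 was at 0.26 (adjusted p = 0.556), Pcdhb15 at -0.23 (adjusted p = 0.424) and Pcdhgb2 at 0.22 (adjusted p = 0.44).

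The authors' deposited table called 0 members by its adjusted p in each of the 6 comparisons. Its smallest were 0.16 for Pcdhac1 in Dp16/D-KO against WT and 0.186 for the same gene in Dp16 against WT. The sign of its log2 fold change was that of the change fitted here in 51 to 53 of the 55 tested members, by comparison. Of the C-types, Pcdhac1 had the largest changes and the intervals 0.07 to 0.51 in Dp16 against WT and 0.08 to 0.54 in Dp16/D-KO compared with WT. In the 6 comparisons the change of Pcdhgc5 lay between -0.0039 and 0.06 and that of Pcdhgc4 between -0.02 and 0.09. For Pcdhgc5 the widest interval, in Dp16;D-KO/K-KO compared with WT, ran from -0.08 to 0.19 (0.05 ± 0.06 SE, adjusted p = 0.834). The change of Pcdhgc3 was 0.14 (adjusted p = 0.424) in libraries labelled Dp16;D-KO/K-KO against those labelled Dp16/D-KO, its largest.

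**Figure D4:**
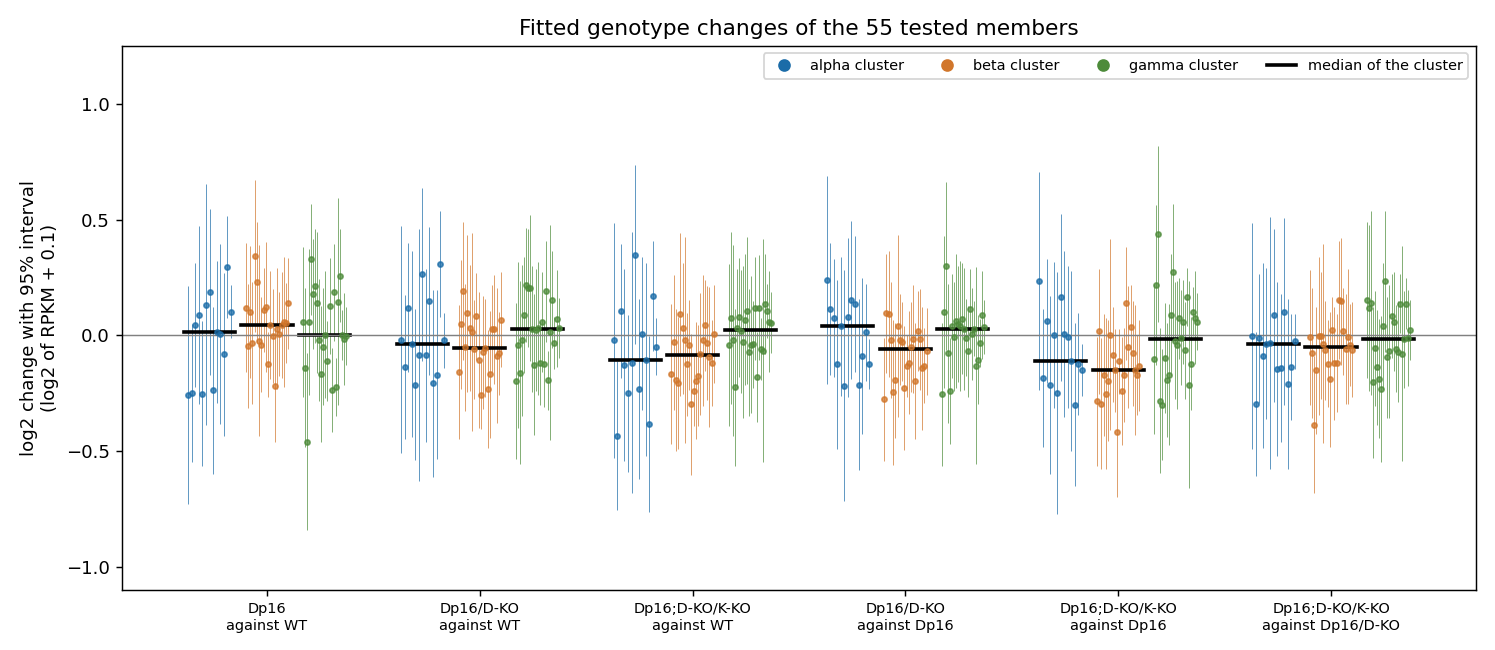
Fitted log2 change and 95% interval of the 55 tested members in the 6 comparisons of genotypes, by cluster and in the order of the chromosome, with the median of each cluster as a black bar. No member passed an adjusted p under 0.05 in any comparison, and the lowest cluster median is the -0.15 of the beta genes in Dp16;D-KO/K-KO against Dp16.

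More members were called between the batches than between any genotypes. In batch 2 against batch 1, 13 of 55 members were called in limma, 11 higher and 2 lower, where 49.4% of all tested genes were called and more of those were lower (33.4%) than higher (16%). By cluster, 10 of 22 gamma genes were higher in batch 2 and 0 lower, 1 of 13 alpha genes was higher, and 2 of 20 beta genes were lower. The median change was 0.17 for gamma, 0.03 for alpha and -0.07 for beta genes, against -0.06 for all tested genes. Whether the clusters differ from each other in this was not tested. RNA label, strain background and age label all change with the batch and cannot be told apart.

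Pcdhgc5 rose the most clearly. It had a median of 48.3 RPKM (38.13 to 51.82) in batch 2, against 37.6 (34.59 to 41.13) in batch 1. In batch 2 only Dp16 M4 fell within the range of batch 1. The log2 change was 0.30 ± 0.04 (SE; adjusted p = 1.5e-05). Pcdhgc3 (0.17, adjusted p = 0.00112) and Pcdhac2 (0.19, adjusted p = 0.000775) rose as well, while Pcdhac1 (-0.17, adjusted p = 0.0842), Pcdha5 (0.24, adjusted p = 0.0792) and Pcdhgc4 (-0.03, adjusted p = 0.732) did not pass. The alternate gamma genes called were Pcdhga7 (0.36), Pcdhga1 (0.35), Pcdhga12 (0.34), Pcdhgb1 (0.33), Pcdhgb7 (0.33), Pcdhga9 (0.29), Pcdhga4 (0.29) and Pcdhga5 (0.27), with adjusted p from 0.000536 to 0.0179. Every called gene had libraries of batch 2 within the range of batch 1. The beta genes called were Pcdhb6, at 0.611 ± 0.121 RPKM in batch 2 and 0.781 ± 0.183 in batch 1 (-0.34 ± 0.12 SE, adjusted p = 0.022), and Pcdhb13, at 1.38 ± 0.245 and 1.72 ± 0.186 in the same batches (-0.33 ± 0.08 SE, adjusted p = 0.00265). Here n is 13 for batch 2 and 10 for batch 1. Pcdhb6 did not pass with the libraries rescaled by the median ratio of all genes (-0.286, adjusted p = 0.0515), without Dp16/D-KO M3 (-0.284, adjusted p = 0.0588) or without Dp16 F1 (-0.275, adjusted p = 0.0718). Pcdhga5 did not pass without Dp16 F1 (0.206, adjusted p = 0.0557), nor Pcdhgb1 without Dp16/D-KO F1 (0.266, adjusted p = 0.0543).

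WT M3, of batch 2, had 168.7 RPKM of gamma genes, below the 169.9 to 200 of the other 12 libraries of batch 2 and within the 145.3 to 170.0 of batch 1. Of the 13 called members it was the library of batch 2 nearest to batch 1 in 6, and within the range of batch 1 in 9. Other libraries of batch 2 lay there too: from 1 of 13 libraries for Pcdhgc5 to 12 of 13 for Pcdhgb1. The gamma sum of Dp16 M4, 169.9 RPKM, was also within batch 1. WT F1, of batch 1, had a gamma sum of 161.9 RPKM, within batch 1 and below every library of batch 2. Without WT F1 and M3, 15 members were called. Some cell type markers differed with the batch as well, to be read beside the 49.4% of all tested genes, and their part in the result was not tested. Of the hippocampal neuron markers 4 of 7 were higher and 1 lower, with a summed level of 246.4 to 320.2 RPKM in batch 2 against 225.8 to 277.2 in batch 1. Of the microglial markers 3 of 5 were higher (55.2 to 68.3 against 50.2 to 56.3), of the oligodendrocyte markers 1 of 8 (2166 to 3336 against 1293 to 3137), of the interneuron markers 1 of 5 (543 to 680 against 458.4 to 598.3), of the astrocyte markers 0 of 5 (353.1 to 424.9 against 360.5 to 416.9), of the ependymal markers 2 of 4 (10.04 to 35.7 against 10.18 to 36.7) and of the choroid plexus markers 0 of 10 (27.4 to 3648 against 14.5 to 3905). Of the oligodendrocyte precursor markers 2 of 4 were higher and 1 lower (97.4 to 135.1 against 92.8 to 141.8).

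**Figure D5:**
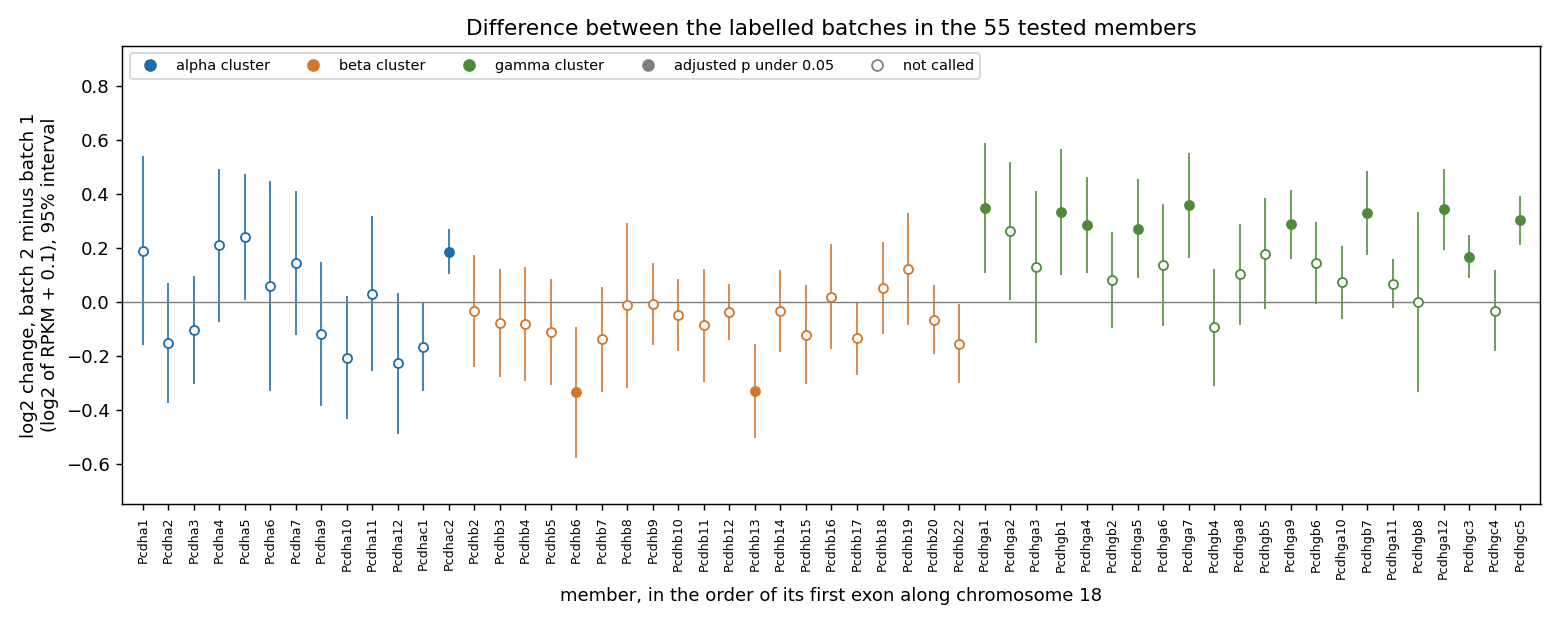
Fitted log2 change of batch 2 minus batch 1 with its 95% interval for the 55 tested members in the order of the chromosome, filled where the adjusted p was under 0.05. The filled points above 0 are 10 gamma genes and Pcdhac2, and those below 0 are Pcdhb6 and Pcdhb13.

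Lists of related genes are set beside the members here, with 0 to 1.45% of all tested genes called by comparison of genotypes, so that a count of 0 in such short lists is near the background. Of 11 tested nonclustered protocadherins, single genes of the same family outside the clusters, 0 were called in any of the 6 comparisons. The smallest adjusted p was the 0.055 of Pcdh20 in Dp16;D-KO/K-KO compared with WT. The most abundant of them, Pcdh1, averaged 53.9 ± 7.64 RPKM (SD, n = 23), above any clustered member. Of 23 tested genes for promoter choice and chromatin, which include CTCF, cohesin subunits and DNA methyltransferases, 0 were called, and the smallest adjusted p was that of the histone methyltransferase gene Setdb1 in Dp16 against WT (0.0574). Of 22 tested genes for partners of the cytoplasmic tails, 0 were called, with the smallest adjusted p for the adhesion kinase gene Ptk2 in Dp16 against WT (0.177). Of 35 tested genes within 1 Mb of the clusters on chromosome 18, 0 were called, with the smallest adjusted p for Eif4ebp3 in libraries labelled Dp16;D-KO/K-KO against Dp16 (0.103).

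Between the batches the first 3 of these lists had called genes at shares near the 49.4% of all tested genes. Of the nonclustered protocadherins 6 of 11 were higher in batch 2 and 0 lower: Pcdh11x (0.30), Pcdh1 (0.29), Pcdh10 (0.29), Pcdh7 (0.21), Pcdh17 (0.20) and Pcdh9 (0.19). Of the promoter choice and chromatin genes 5 were higher and 7 lower. Among those lower were Tet3 (-0.56, adjusted p = 4.78e-07), Rest (-0.47), Dnmt3a (-0.39), Setdb1 (-0.26), Stag1 (-0.12) and Tet2 (-0.11), and those higher were Lrif1 (0.32), Zfp143 (0.29), Nipbl (0.21), Pds5b (0.11) and Rad21 (0.10). The largest fall was thus that of a gene for an enzyme that oxidises methylcytosine, and Dnmt3a makes methylcytosine. Of the partners of the tails 7 were higher, among them Wasf1 (0.30), Nlgn1 (0.27), Abi2, Marcks, Cyfip2 and Abi1, and 5 lower, Aph1a (-0.37), Brk1 (-0.27), Nlgn2, Ptk2 and Cyfip1. Wasf1, Abi1, Abi2, Brk1, Cyfip1 and Cyfip2 encode parts of the WAVE complex, which remodels actin, and they fall on both sides. Of the neighbours on chromosome 18, of which Pcdh1 is one, 7 were higher and 17 lower with a median of -0.10, from Hars2 (-0.52, adjusted p = 1.56e-06) to Pura, a single-stranded nucleic acid binding protein gene, which had 15.4 ± 3.39 RPKM in batch 2 (n = 13) and 6.82 ± 0.959 in batch 1 (n = 10; 1.08 ± 0.12 SE, adjusted p = 1.08e-06).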

How the data were processed

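The authors deposited 1 RPKM value per gene and library, rounded to 2 decimals, with their own log2 fold changes, p-values and adjusted p-values for 6 comparisons. HISAT and mm10 are named in the submitters' processing notes. The sources used here do not give the counting, the gene length and library size behind RPKM or the authors' test.

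The fit used log2(RPKM + 0.1), which understates the changes of low genes. The 13971 genes with a mean of at least 0.5 were fitted by limma 3.58.1 in R 4.3.3, with all 4 genotypes, batch, sex letter and an intensity trend in 1 model. Tests were two-sided and adjusted by Benjamini-Hochberg over the tested genes. Calls are adjusted p below 0.05. The fit was tested on simulated data. Batch was read from the RNA label.

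Depth was estimated in 385 genes with transcripts under 1000 bases and a mean RPKM below 0.3, as the number of reads that brought values nearest to whole reads. Then 43.2 to 58.7% of values lay within 0.15 of a whole number, against 30% by chance at a fixed depth, so no count test was run. Shared stretches of 50 bases were counted between transcripts of GENCODE vM21, and the positions of 5′ ends compared with RefSeq.

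Residuals of libraries with the same replicate label, batch and letter correlated by -0.04 on average over 26 pairs, of which 6 were over 0.1. Over 26 pairs with other labels in the same batch and letter the average was -0.11, with 3 over 0.1. These values do not exclude a pairing. Replicate labels were not taken to pair samples in the main fit, and a replicate block was run as an alternative. The members, gene lists and naming rule (called members, the highest and lowest of each cluster, the smallest p of each cluster and comparison, and the C-types) were chosen with earlier results of these data known. Pcdhga3, Pcdha6, Pcdhb10, Pcdhb16 and Pcdhb19 were named after their values were seen where the rule does not name them. Alternatives to each choice were run. Some called genes of these lists are not reported here by name.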

Additional observations from a re-analysis of the deposited data

Results flagged for a closer look

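The members of the naming rule and the cluster sums gave 164 combinations with a genotype group, and the other members were not screened. In 8 of these a library lay far from the others by Dixon's test at 95%, where chance gives about 1 in 20. In libraries labelled Dp16;D-KO/K-KO, M1 had 0.94 RPKM of Pcdha4, where the other 4 had 2.52 to 2.75, and F2 had 1.09 RPKM of Pcdhb13, where the others had 1.38 to 1.44. F1 of the same group had 8.02 RPKM of Pcdhga5, against 4.26 to 5.09 in the others, and a beta sum of 36.96 RPKM, against 31.85 to 33.13. In Dp16, F1 had 1.32 RPKM of Pcdhb15, against 0.80 to 1.01 in the other 6, and 1.21 RPKM of Pcdhb6, against 0.55 to 0.83. In WT, F1 had 1.65 RPKM of Pcdha10, against 0.91 to 1.11 in the other 4, and M3 had 2.33 RPKM of Pcdhb20, against 2.79 to 2.91.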

How the results depend on the processing

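Of the results for named genes under all alternatives, 1267 kept their direction and side of the threshold, 17 lost a call, 6 gained one and 3 changed sign. The changes of sign were Pcdhga4 in Dp16 against WT in batch 1 alone (-0.165), Pcdha11 in Dp16/D-KO against Dp16 in batch 1 alone (0.0374) and Pcdhb6 in the comparison of batches with a replicate block (0.0538). The count of members called in Dp16 against WT was 1 in batch 2 alone (Pcdhga4) and 1 with a replicate block (Pcdhga11, -0.237, adjusted p = 0.0404 in limma). It ran from 0 to 1 with each library left out in turn. Without WT M2 it was Pcdhga4 (0.443, adjusted p = 0.0368), and without WT M4 (-0.254, adjusted p = 0.044) or Dp16 F1 (-0.257, adjusted p = 0.0243) it was Pcdhga11. In Dp16/D-KO against WT it was 1 with no intensity trend (Pcdhb12, -0.26, adjusted p = 0.0299). Between the batches it was 0 with a replicate block, in which only label F1 occurs in both batches, and 11 to 15 with each library left out. The block changed no other count. Other pseudocounts, filters, scaling and covariates left the counts between genotypes at 0 and put that between the batches at 12 to 16. Counts over all tested genes, behind the shares printed beside the members, moved more. With only the groups compared in the fit, they were 94 in place of 202 in Dp16 against WT, 52 in place of 20 in Dp16/D-KO against Dp16, 16 in place of 5 in Dp16;D-KO/K-KO against Dp16, 91 in place of 179 in Dp16/D-KO against WT and 55 in place of 105 in Dp16;D-KO/K-KO against WT. With no batch in the model they were 97, 0, 2, 95 and 63 in the same order. Without WT F1 and M3 they were 96 in place of 202 in Dp16 against WT and 89 in place of 20 in Dp16/D-KO against Dp16. With a replicate block they were 0 in Dp16/D-KO against Dp16 and 0 in place of 6902 between the batches. With single libraries left out they ran from 116 (without WT F1) to 274 in Dp16 against WT, 0 (without Dp16 M2, Dp16 F2 or Dp16/D-KO M3) to 26 in Dp16/D-KO against Dp16, 0 (without Dp16;D-KO/K-KO M1, M2 or F2) to 7 in Dp16;D-KO/K-KO against Dp16 and 108 (without WT M4) to 387 (without WT M3) in Dp16/D-KO against WT.

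Cluster medians moved by more than the spread between libraries in these cases. In batch 1 alone, the gamma median was -0.0629 in Dp16/D-KO against Dp16, -0.129 in Dp16;D-KO/K-KO against Dp16, -0.113 in Dp16/D-KO against WT and -0.134 in Dp16;D-KO/K-KO against WT. The alpha median there was -0.103 in Dp16;D-KO/K-KO against Dp16/D-KO, -0.0196 against Dp16 and -0.172 against WT, and the beta median -0.197 in Dp16;D-KO/K-KO against Dp16/D-KO. In batch 2 alone, the alpha median was -0.0366 in Dp16/D-KO against Dp16, 0.0248 in Dp16/D-KO against WT and -0.0255 in Dp16;D-KO/K-KO against WT, and the beta median 0.0496 in Dp16;D-KO/K-KO against Dp16/D-KO. With a replicate block, the alpha median was -0.00856 in Dp16;D-KO/K-KO against Dp16 and 0.0404 in Dp16/D-KO against WT. With each library left out, the alpha median ran from -0.12 to -0.0419 in Dp16;D-KO/K-KO against Dp16, from -0.115 to -0.0289 against Dp16/D-KO and from -0.136 to -0.0364 against WT, and from -0.108 to -0.00485 in Dp16/D-KO against WT. The cause was not tested. Depth limits the lowest beta genes, with an average of about 41 estimated reads in Pcdhb4, and without counts no interval for single values can be given.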
